A study of Homo sapiens with 6 samples.

Results

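The SR proteins and the hnRNPs are the 2 large families of RNA-binding proteins that steer pre-mRNA splicing. Their genes were followed in PC3-ML, a human prostate cancer line derived from PC-3 and known for metastasis. The members are all genes with a symbol of the form SRSF or HNRNP followed by a number or letters, read from transcript clusters (the array's unit, a group of probes with 1 value per array) that name this gene alone, without pseudogenes and with the brightest cluster per gene. This gave 26 of the 22375 genes tested, 10 SR protein genes and 16 hnRNP genes. Total RNA was measured on 6 Affymetrix arrays. Of these, 3 carried RNA from cells given the DMSO vehicle and 3 carried RNA from cells given 500 nM PD 0332991 in DMSO, each for 24 h. Both groups are this 1 cell line, grown in DMEM with serum. PD 0332991 (palbociclib) inhibits the kinases CDK4 and CDK6, and the title of the study describes its use as re-activating the retinoblastoma protein.

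SR proteins carry 1 or more RNA recognition motifs and a tail rich in arginine and serine. Bound to exonic enhancers, they recruit the spliceosome and favour inclusion of the exon. Many hnRNPs bind silencers in exons and introns and favour skipping, and they also package, retain, export or destabilise transcripts. Many genes of both families limit their own output by splicing in exons that send the transcript to nonsense-mediated decay. Each cluster gives 1 value per array, and productive and unproductive isoforms were not separated here.

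Most of the genes of both families were lower with PD 0332991, by small amounts. Of the 26 members, 19 fell (73.1%), 1 rose and 6 did not pass an adjusted p of 0.05 in limma. Over all genes tested, 5.74% passed as lower, 5.57% as higher and 11.3% in either direction. The hnRNPs fell in 13 of 16 cases and the SR proteins in 6 of 10, with SRSF8 as the gene that rose. Without DMSO 1, DMSO 2 or PD 0332991 replicate 1, only 3 SR protein genes fell (SRSF1, SRSF7 and SRSF10), while 13 hnRNPs fell whichever array was left out. The median log2 change (PD 0332991 minus DMSO) was -0.41 for the hnRNPs and -0.21 for the SR proteins, against 0.02 over all genes tested. In linear terms the 19 falls were between 1.15-fold (SRSF4) and 1.55-fold (HNRNPH3). The largest fall of all genes tested was that of the proliferation marker MKI67 (22.4-fold). MKI67 served as a check of the treatment together with cyclin A2 (CCNA2, 10.7-fold lower). Both were chosen with earlier results of these data known, so they are no independent check. Among genes that fell, the median log2 change was -0.43 for members and -0.40 for all genes.

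**Figure D1:**
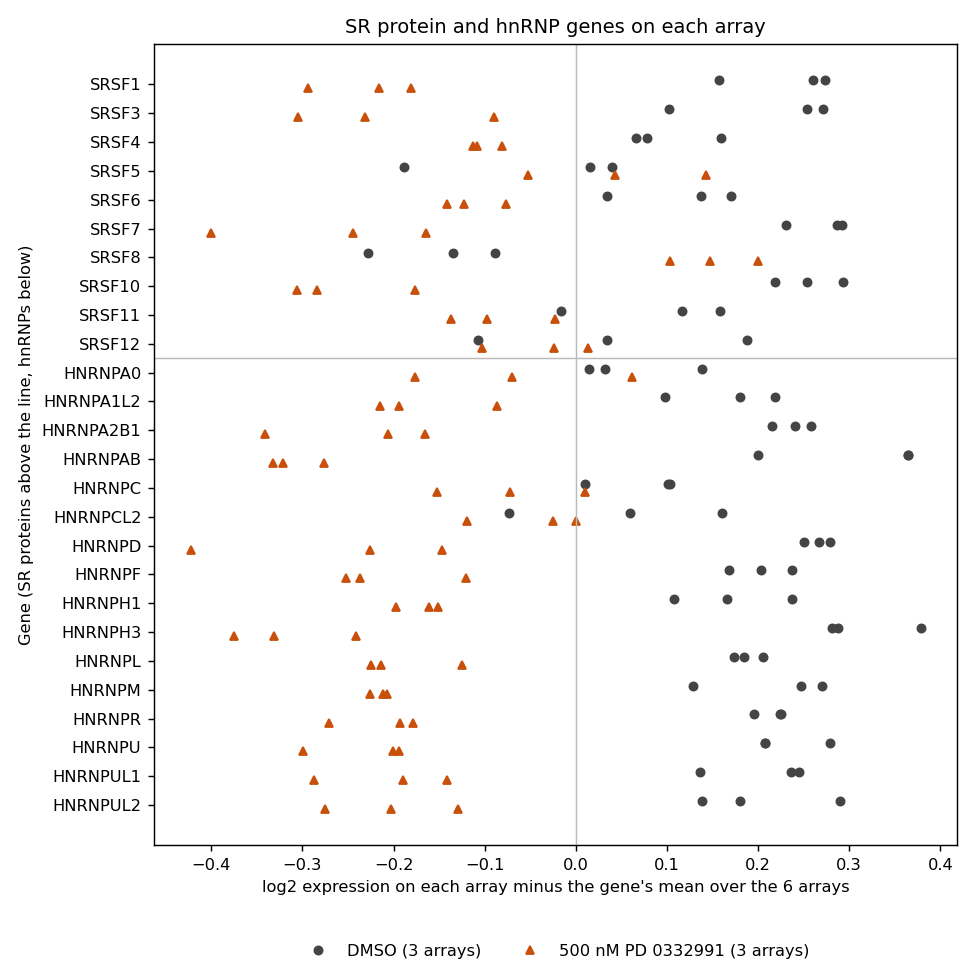
Expression of the 26 genes on each array, as log2 expression minus the mean of that gene over the 6 arrays (x axis), with 3 DMSO arrays as circles and 3 PD 0332991 arrays as triangles. The triangles lie left of the circles without overlap in 20 genes and right of them in SRSF8.

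The groups did not overlap in 21 of the 26 genes, 20 of them lower with PD 0332991, and 29.9% of all genes tested had no overlap in either direction. Averaged over the 26 genes and relative to their means, the DMSO arrays lay at 0.18, 0.18 and 0.12 on the log2 scale and the PD 0332991 arrays at -0.17, -0.19 and -0.12. The third array of each group thus lay nearest to the other group. Because most members are bright on the array, they were also set beside bright genes only, a comparison chosen after the values were seen. Of the 15 members with a mean above 10 on the log2 scale, 12 fell, whereas 15.6% of the 2277 genes above that level did. These are bulk RNA samples, in which fewer cells of a kind and less RNA per cell cannot be told apart.

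The label of the cells was checked against markers. The mean level of 5 epithelial genes was 9.57 to 9.67 on the DMSO arrays and 9.76 to 9.83 on the PD 0332991 arrays (log2 expression), and of these KRT8 and KRT19 rose. KLK2, KLK3 and TMPRSS2, androgen-dependent genes of luminal prostate cells, had means between 3.46 and 5.09, in a table whose lowest value was 2.04. Leukocyte, fibroblast and endothelial markers (11 genes) had means between 3.61 and 4.48 and none passed the threshold; at an unadjusted p under 0.05 the number was 0 as well. The medians of the 6 arrays over all genes ranged from 5.33 to 5.37.

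To show what lies upstream of the genes that moved most, promoters are printed for the largest fall and rise in each family. These are SRSF7, SRSF8 and HNRNPH3, as no hnRNP member rose. Promoters of their close paralogs SRSF3 and HNRNPH1 are also printed, and that of SRSF10, which was added after its motif was seen. Each is the RefSeq window of 250 bases before and 50 bases from the most upstream annotated start, 5′ to 3′ on the strand of the gene, in build GRCh38.p14. They lie at chr2:38751445-38751744 (minus strand), chr6:36594112-36594411 (plus strand), chr1:23980278-23980577 (minus strand), chr11:95066627-95066926 (plus strand), chr10:68331443-68331742 (plus strand) and chr5:179634735-179635034 (minus strand). Capitals mark matches on either strand to a CCAAT box (bound by NF-Y) or to the E2F motif described after the sequences; SRSF7 and HNRNPH1 had no match.
SRSF7: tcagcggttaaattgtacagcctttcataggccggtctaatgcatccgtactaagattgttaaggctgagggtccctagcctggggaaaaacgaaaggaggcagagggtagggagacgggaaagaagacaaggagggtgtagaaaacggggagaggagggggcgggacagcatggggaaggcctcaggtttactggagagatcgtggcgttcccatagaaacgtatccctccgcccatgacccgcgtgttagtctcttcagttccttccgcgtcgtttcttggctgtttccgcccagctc
SRSF3: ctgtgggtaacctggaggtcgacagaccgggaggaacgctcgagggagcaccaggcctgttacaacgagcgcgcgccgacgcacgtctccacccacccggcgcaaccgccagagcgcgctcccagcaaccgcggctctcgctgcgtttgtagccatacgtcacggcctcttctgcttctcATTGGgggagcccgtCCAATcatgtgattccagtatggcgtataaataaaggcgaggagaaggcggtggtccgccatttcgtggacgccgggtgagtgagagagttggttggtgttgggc
SRSF10: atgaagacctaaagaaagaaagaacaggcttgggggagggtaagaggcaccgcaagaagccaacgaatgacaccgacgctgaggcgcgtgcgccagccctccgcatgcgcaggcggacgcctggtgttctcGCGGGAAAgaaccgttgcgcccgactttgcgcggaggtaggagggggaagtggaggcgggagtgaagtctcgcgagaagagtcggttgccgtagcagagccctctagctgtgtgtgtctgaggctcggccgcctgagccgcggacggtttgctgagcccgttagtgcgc
SRSF8: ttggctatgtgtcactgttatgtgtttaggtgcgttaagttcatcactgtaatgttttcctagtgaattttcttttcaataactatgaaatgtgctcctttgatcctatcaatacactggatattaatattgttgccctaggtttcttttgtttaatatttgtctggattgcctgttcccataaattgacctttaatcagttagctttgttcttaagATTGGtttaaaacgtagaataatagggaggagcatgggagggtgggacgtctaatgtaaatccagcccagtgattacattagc
HNRNPH3: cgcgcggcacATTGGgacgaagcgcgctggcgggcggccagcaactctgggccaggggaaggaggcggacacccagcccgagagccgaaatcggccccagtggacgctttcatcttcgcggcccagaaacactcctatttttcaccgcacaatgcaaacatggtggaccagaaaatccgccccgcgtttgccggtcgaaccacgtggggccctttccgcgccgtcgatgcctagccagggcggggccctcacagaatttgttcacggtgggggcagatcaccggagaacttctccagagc
HNRNPH1: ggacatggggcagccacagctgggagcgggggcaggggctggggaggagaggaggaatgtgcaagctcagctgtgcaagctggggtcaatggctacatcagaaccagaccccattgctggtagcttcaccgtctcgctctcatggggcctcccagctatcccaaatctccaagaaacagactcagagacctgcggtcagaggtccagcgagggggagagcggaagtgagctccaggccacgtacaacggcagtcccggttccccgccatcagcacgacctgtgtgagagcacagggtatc

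E2F factors, which the retinoblastoma protein holds back, bind sites of the type searched here as TTTGGCGC, TTTCGCGC, TTTGCCGC or TTTCCCGC on either strand. Of the 26 member promoters, 1 held such a match, that of SRSF10, where GCGGGAAA lies at positions -119 to -112, the start being position 0. The motif occurred in 3.34% of all 27305 promoters and in 4.23% of the 15199 promoters of genes tested. Of the 1009 promoters of genes that fell in these data, 12.9% held it. CCAAT (either strand) was found in 13 of the 26 members, in 11 of 16 hnRNPs and 2 of 10 SR proteins. Its share was 35.7% of all promoters, 36.3% of those of genes tested and 46.5% of those of genes that fell. Among the members it was found in 9 of the 19 that fell and in 4 of the 7 that did not. SRSF3 has 2 such boxes, at -70 to -66 and at -55 to -51. The cell cycle genes homology region, TTTGAA on either strand, was found in 3 members (SRSF6, SRSF11 and HNRNPR), or 11.5%. It was found in 15.5% of all promoters, 12.6% of those of genes tested and 18.9% of those of genes that fell. Only the most upstream start of each gene was searched. HNRNPH1 has 4 annotated starts, HNRNPH3 and HNRNPUL1 have 3, and SRSF7, SRSF8, SRSF11, HNRNPF and HNRNPL have 2. No match overlapped one of another kind in the members' windows, the 2 CCAAT matches of HNRNPU overlapped each other, and a match is a description of the letters only.

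SRSF1, the first SR protein to be purified and an oncoprotein in several tumours, read 13.65, 13.63 and 13.53 on the DMSO arrays and 13.19, 13.08 and 13.16 on the PD 0332991 arrays (log2 expression). All 3 treated arrays lay below all 3 controls. The mean went from 13.60 ± 0.064 to 13.14 ± 0.058 (SD, n = 3), a log2 change of -0.46 ± 0.053 (SE, limma adjusted p = 0.00234).

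SRSF7, also called 9G8, acts in splicing and as an adaptor for mRNA export, and had the largest fall of the SR proteins. Its values were 10.10, 10.15 and 10.16 with DMSO and 9.47, 9.62 and 9.70 with PD 0332991. The treated arrays were more spread than the controls (10.14 ± 0.034 against 9.60 ± 0.120, SD, n = 3), yet well separated from them. The log2 change was -0.54 ± 0.066 (SE, limma adjusted p = 0.00305), or 1.45-fold lower.

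SRSF3, the smallest SR protein and the paralog of SRSF7 in export, read 11.92, 11.94 and 11.77 with DMSO and 11.43, 11.36 and 11.57 with PD 0332991. Its log2 change was -0.42 ± 0.073 (SE, limma adjusted p = 0.0130). The call was lost, with an adjusted p above 0.05, without DMSO 1 (0.0503), DMSO 2 (0.0525) or PD 0332991 replicate 1 (0.0510). The groups were separate, with the third array of each nearest to the other group. Between SRSF3 and SRSF7 the log2 changes differed by 0.12 (95% interval -0.14 to 0.38).

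SRSF10, known for repressing splicing when dephosphorylated in mitosis and after heat shock, had values of 10.07, 10.10 and 10.14 with DMSO against 9.57, 9.54 and 9.67 with PD 0332991. The log2 change was -0.51 ± 0.051 (SE, limma adjusted p = 0.00121), the lowest p of the SR proteins. It was one of 2 members with a pair of clusters, and the dimmer cluster had a log2 change of -0.50. By its name, the brighter cluster used here lies on a random contig, a piece of sequence without a fixed place. Whether the 2 clusters share probe sequences was not tested, so they may not be independent. Its paralog SRSF12 was dim on every array (3.83 to 4.12) and had a log2 change of -0.08 (adjusted p = 0.646).

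SRSF4, SRSF5 and SRSF6 each have a pair of RNA recognition motifs, and the first and the last of them fell. SRSF4 read 7.96, 7.97 and 8.06 with DMSO and 7.82, 7.79 and 7.78 with PD 0332991, a log2 change of -0.20 ± 0.044 (SE, limma adjusted p = 0.0299). For SRSF6, values of 10.76, 10.79 and 10.66 stood against 10.50, 10.48 and 10.55, a log2 change of -0.23 ± 0.051 (adjusted p = 0.0326). The groups did not overlap in either gene, but the calls rest on all 6 arrays. With any array left out, SRSF4 had an adjusted p between 0.0583 and 0.0897, and SRSF6 reached 0.109 and stayed under 0.05 only without DMSO 3 (0.0306).

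SRSF5 overlapped between the groups, at 11.77, 11.74 and 11.54 with DMSO and 11.67, 11.87 and 11.77 with PD 0332991. Its log2 change was 0.09 (95% interval -0.10 to 0.28, adjusted p = 0.580). SRSF11, a less typical SR protein also called p54, had a log2 change of -0.17 ± 0.060 (SE, adjusted p = 0.135), with an unadjusted p of 0.0250 and groups that did not overlap.

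SRSF8 was the member that rose. It encodes a protein close to SRSF2 and arose as a retrotransposed copy of that gene, so its value is uncertain where probes do not separate the copies. The values were 8.58, 8.63 and 8.49 with DMSO and 8.82, 8.87 and 8.92 with PD 0332991. Every treated array lay above every control, and the log2 change was 0.30 ± 0.053 (SE, limma adjusted p = 0.0134), 1.23-fold. The rise passed with any single array left out (adjusted p 0.0281 to 0.0475), but not with all transcript clusters in the fit (0.0849) or without variance moderation (0.0523). SRSF2 itself shares its cluster with a microRNA gene and SRSF9 shares one with another gene, and neither was analysed here.

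**Figure D2:**
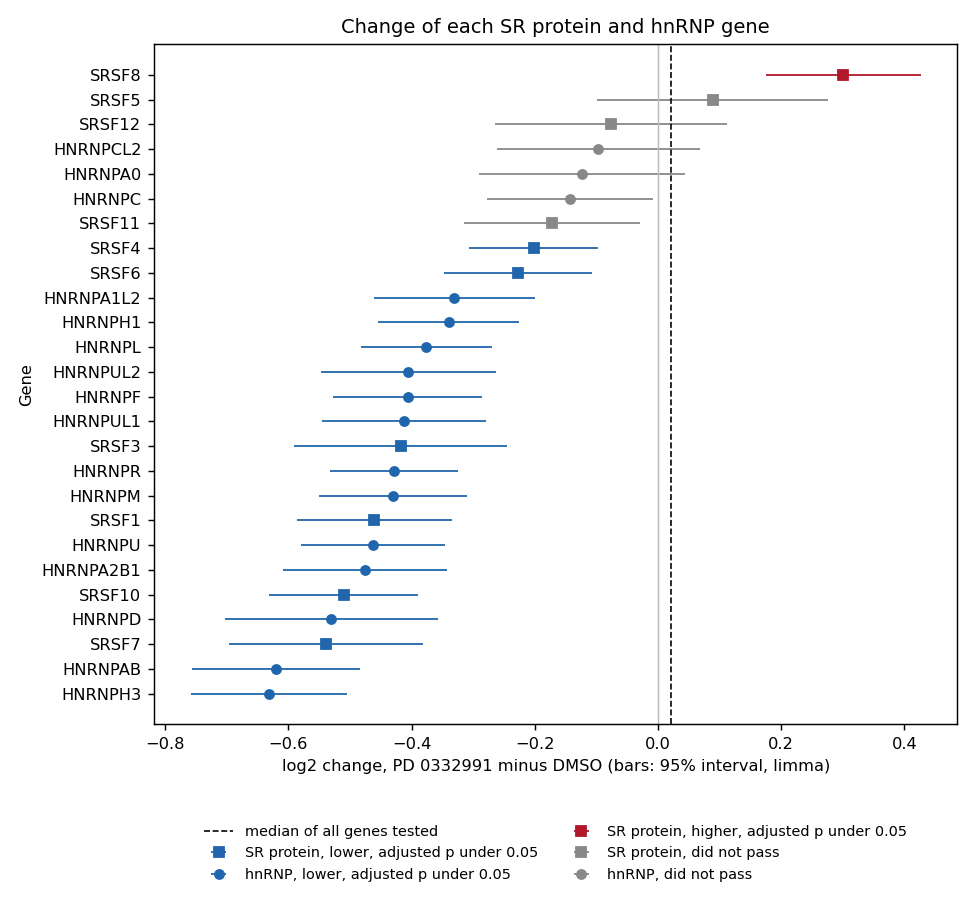
Log2 change of each member (x axis, PD 0332991 minus DMSO), ordered by size, with 95% intervals from limma; squares are SR proteins, circles hnRNPs, and the dashed line is the median of all genes tested at 0.02. The changes run from -0.63 (HNRNPH3) to 0.30 (SRSF8), and 24 of 26 lie below 0.

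All 16 hnRNP members had a log2 change below 0, from -0.63 to -0.10, and none of these rose by limma, also at an unadjusted p under 0.05. Clusters that also name other symbols, such as that of HNRNPH2, are not among the 16. HNRNPH3, which with HNRNPH1 and HNRNPF binds runs of G, had the largest change of all members. Its values were 10.41, 10.50 and 10.40 with DMSO and 9.88, 9.79 and 9.74 with PD 0332991. The separation of the groups exceeded the spread within them several times over (10.44 ± 0.054 against 9.80 ± 0.068, SD, n = 3). The log2 change was -0.63 ± 0.054 (SE, limma adjusted p = 0.000577). HNRNPF had a log2 change of -0.41 (9.65 to 9.78 with PD 0332991 against 10.07 to 10.14 with DMSO, adjusted p = 0.00334) and HNRNPH1 one of -0.34 (10.45 to 10.50 against 10.76 to 10.89, adjusted p = 0.00544). HNRNPH2 was not analysed here.

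HNRNPAB and HNRNPD are close relatives, and HNRNPD (AUF1) binds AU-rich elements and speeds the decay of mRNAs that carry them. HNRNPAB read 12.49, 12.49 and 12.33 with DMSO and 11.81, 11.85 and 11.79 with PD 0332991, with a log2 change of -0.62 ± 0.057 (SE, limma adjusted p = 0.000891). In HNRNPD the controls agreed closely (9.71, 9.70 and 9.68) and the treated arrays were spread (9.29, 9.01 and 9.21), PD 0332991 replicate 2 being lowest. Its log2 change was -0.53 ± 0.073 (adjusted p = 0.00478). Both genes were therefore below their controls on every treated array.

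In the A group, which shuttles between nucleus and cytoplasm and commonly opposes SR proteins at exons, 3 genes were measured and 2 of them fell. HNRNPA2B1, also a reader and carrier of specific RNA motifs, read 13.85, 13.87 and 13.82 with DMSO and 13.44, 13.27 and 13.40 with PD 0332991. It fell by 0.48 on the log2 scale (SE 0.056, limma adjusted p = 0.00251). HNRNPA0, which binds AU-rich elements in stress responses, overlapped between the groups (8.79, 8.67 and 8.68 with DMSO, and 8.58, 8.48 and 8.71 with PD 0332991). Its log2 change was -0.12 (95% interval -0.29 to 0.04, adjusted p = 0.367). HNRNPA1L2, a retrotransposed copy of HNRNPA1, had a log2 change of -0.33 ± 0.055 (SE, adjusted p = 0.0108), with 8.07 to 8.20 with DMSO and 7.76 to 7.89 with PD 0332991. The call was lost with all transcript clusters in the fit (adjusted p = 0.0698) and without variance moderation (0.0501). Since its probes may take up HNRNPA1 transcripts, this value is uncertain. HNRNPA1 and HNRNPA3 share their clusters with other symbols and were not analysed here.

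HNRNPC, a tetramer-forming protein that binds runs of U and keeps Alu sequences out of mature mRNA, was one of the brightest members and did not pass. It read 13.63, 13.72 and 13.72 with DMSO and 13.46, 13.55 and 13.63 with PD 0332991. The highest treated array reached the lowest control. The log2 change was -0.14 ± 0.057 (SE, limma adjusted p = 0.182; unadjusted p = 0.0403). HNRNPCL2, a relative of HNRNPC, was dim on all arrays (4.11 to 4.39) and had a log2 change of -0.10 (adjusted p = 0.480); near-identical copies of it exist, so this value is uncertain.

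HNRNPU, also known as scaffold attachment factor A, organises chromatin together with RNA. It read 12.86, 12.79 and 12.79 with DMSO and 12.38, 12.28 and 12.39 with PD 0332991, a log2 change of -0.46 ± 0.049 (SE, limma adjusted p = 0.00158). Its relatives HNRNPUL1 and HNRNPUL2, which act in the response to DNA breaks, had log2 changes of -0.41 (adjusted p = 0.00462) and -0.41 (adjusted p = 0.00657). All 3 genes were separated between the groups. HNRNPU-AS1, the antisense gene beside HNRNPU, had a log2 change of -0.24 (adjusted p = 0.101). Whether the strands are fully separated by the probes was not tested.

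HNRNPM, a regulator of CD44 splicing, read 14.31, 14.43 and 14.45 with DMSO and 13.97, 13.97 and 13.96 with PD 0332991. Here the treated arrays were the tight group (13.97 ± 0.0099, against 14.40 ± 0.076 with DMSO, SD, n = 3), and the log2 change was -0.43 (limma adjusted p = 0.00248). HNRNPL, which binds CA repeats, went from 9.13 ± 0.016 to 8.75 ± 0.054, a log2 change of -0.38 (adjusted p = 0.00265). HNRNPR, a relative of SYNCRIP that also travels along axons with mRNA, read 12.74, 12.71 and 12.74 with DMSO and 12.32, 12.24 and 12.34 with PD 0332991, a log2 change of -0.43 ± 0.044 (adjusted p = 0.00134). A second, much dimmer cluster of HNRNPR went the other way (log2 change 0.20, values between 6.02 and 6.54), and the mean of both clusters had a log2 change of -0.11 (adjusted p = 0.425). HNRNPK, HNRNPDL and HNRNPLL were not analysed here.

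Other clusters related to the families were described for comparison. Among 7 pseudogene clusters, 4 were lower past the threshold: HNRNPA1P8 (log2 change -0.83), HNRNPA1P33 (-0.61), HNRNPA3P3 (-0.52) and HNRNPA3P5 (-0.48). All 4 are copies of HNRNPA1 or HNRNPA3. The share of all genes tested that passed as lower was 5.74%. Log2 changes of the 7 ranged from -0.83 to 0.10. These copies are near-identical to their parent genes, so their signal cannot be assigned to them with certainty. In 9 further clusters a family symbol stood beside other symbols, and their log2 changes are not attributed to a gene. They lay between -0.64 (the cluster naming HNRNPA1, HNRNPA1P10 and HNRNPA1L2) and 0.24 (the cluster naming HNRNPH2 and RPL36A-HNRNPH2).

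Close paralogs were compared through the difference of their log2 values on each array. Of 16 pairs listed, 9 had both genes measured. In 3 pairs the 95% interval of the difference left out 0. SRSF5 minus SRSF6 came to 0.32 (0.11 to 0.52) and HNRNPH1 minus HNRNPH3 to 0.29 (0.13 to 0.46). SRSF10 minus SRSF12 came to -0.43 (-0.76 to -0.10), but SRSF12 was as dim as the leukocyte, fibroblast and endothelial markers, so this value reflects the fall of SRSF10 and does not compare the responses of the paralogs. Each of the 3 had a two-sided exact permutation p of 0.1, the smallest that 3 against 3 allows, and 0.300 after Benjamini-Hochberg adjustment over the 9 pairs, so no pair could pass. For the other 6 pairs the intervals held 0; the narrowest was that of HNRNPU minus HNRNPUL1 (-0.05, -0.24 to 0.13), and HNRNPUL1 minus HNRNPUL2 was -0.01 (-0.24 to 0.23).

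**Figure D3:**
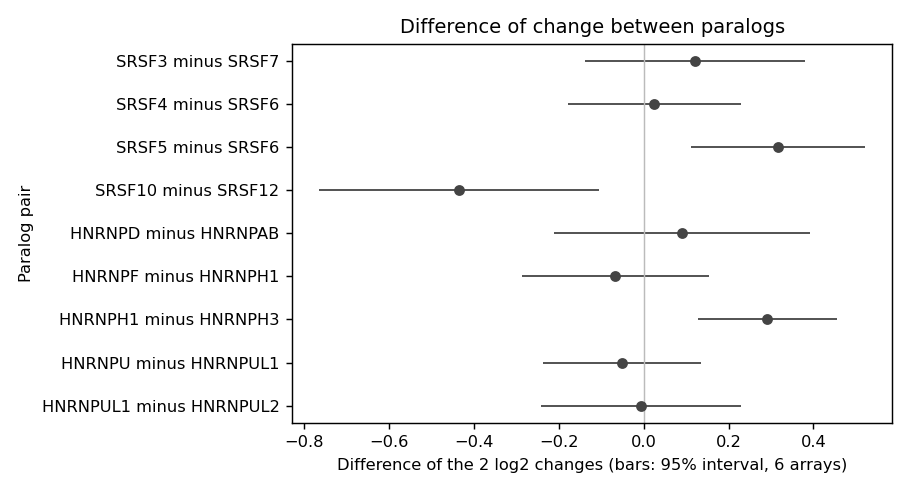
Difference of log2 change between paralogs (x axis) with 95% intervals over 6 arrays. The intervals of SRSF5 minus SRSF6 (0.32) and HNRNPH1 minus HNRNPH3 (0.29) leave out 0; that of SRSF10 minus SRSF12 (-0.43) does too, but SRSF12 is too dim for a comparison of responses.

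The other genes of the splicing pathway were taken from 6 lists, of whose 161 genes 145 were tested. Together 48 fell (33.1%) and 4 rose (2.76%), and the median log2 change was -0.11. Over all genes tested, 5.74% passed as lower and 5.57% as higher. Without DMSO 2, 31 fell, and 1 or 2 rose with any array left out. The SR-related proteins fell in 10 of 25 cases and rose in 0 (also 0 at an unadjusted p under 0.05). They included TRA2B, an enhancer-binding splicing activator (log2 change -0.56, limma adjusted p = 0.000995), SCAF4 (-0.37) and ACIN1 (-0.34). The list's median was -0.13.

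RNA-binding proteins counted among hnRNPs under other names fell in 8 of 20 cases and rose in 1, with a median log2 change of -0.17. All genes tested passed as lower in 5.74% and as higher in 5.57% of cases. RALY (-0.44), DAZAP1 (-0.46) and ILF2 (-0.47) had the smallest p, and the poly(C)-binding protein PCBP2 (-0.30) and the neural PTB relative PTBP2 (-0.23) also fell. PCBP1 had a log2 change of -0.01 (adjusted p = 0.955) and SYNCRIP one of -0.14 (adjusted p = 0.141); PTBP1 was not analysed here. MSI2, a translational regulator, rose (0.36, adjusted p = 0.0228). Without DMSO 2, 4 of this list fell, and 5 did without PD 0332991 replicate 1 or 2; the rise of MSI2 was lost without DMSO 1, DMSO 3 or PD 0332991 replicate 1 or 3.

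Core spliceosome genes fell in 22 of 58 cases and none rose by limma (1 higher at an unadjusted p under 0.05). The median log2 change was -0.17. All genes tested passed as lower in 5.74% and as higher in 5.57% of cases. With all transcript clusters in the fit 10 core spliceosome genes fell, and without variance moderation 13 did. DDX46, a helicase of the U2 particle, had the largest fall of any gene in the 6 lists (-1.21, adjusted p = 5.21e-05), followed by the Sm protein SNRPB (-0.85, adjusted p = 0.000958). The next smallest p was that of SF3A3 (-0.36). In the exon junction complex and nonsense-mediated decay list, 4 of 12 fell, all of them exon junction genes: EIF4A3 (-0.38), MAGOHB (-0.36), MAGOH (-0.33) and CASC3 (-0.32). SMG8, which restrains the decay kinase SMG1, rose (0.25, adjusted p = 0.0445), and the list's median was -0.12. Without DMSO 2, 1 of these falls passed, and 2 did without DMSO 3 or PD 0332991 replicate 1 or 2. The call of SMG8 held only when PD 0332991 replicate 1 was the array left out.

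Of 11 genes in the list of SR protein kinases and nuclear importers, 1 rose and 1 fell (9.09% each). Over all genes tested, 5.57% passed as higher and 5.74% as lower. CLK4, a kinase that releases SR proteins from speckles, rose (0.32, limma adjusted p = 0.0166). DYRK1A fell (-0.26, adjusted p = 0.0171), and the list median was 0.04. CLK4 lost its call without DMSO 1, DMSO 2 or PD 0332991 replicate 1, and DYRK1A lost its call without DMSO 1, DMSO 3 or PD 0332991 replicate 1 or 3. CLK1 had a log2 change of 0.17 (adjusted p = 0.0581) and SRPK1, the main cytoplasmic SR protein kinase, one of -0.07 (adjusted p = 0.411). Among 19 other regulators of alternative splicing, 15.8% fell and 5.26% rose. KHDRBS1 (-0.39), ELAVL1 (-0.25) and KHDRBS3 (-0.20) fell and NOVA1 rose (0.33, limma adjusted p = 0.0323), with a median of -0.02. With 1 array left out, NOVA1 kept its call only without DMSO 1.

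**Figure D4:**
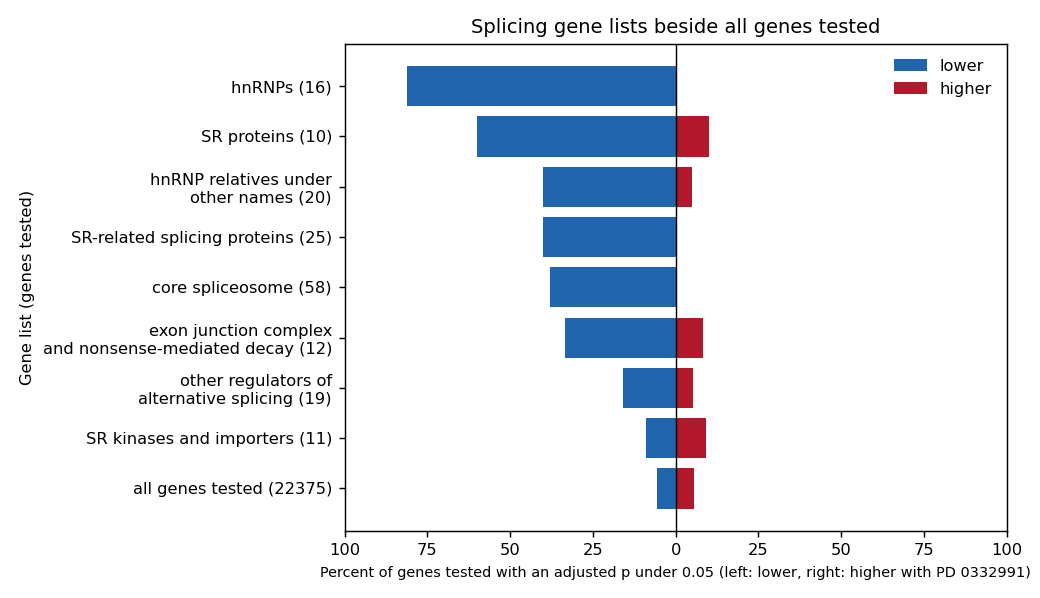
Percent of the genes tested in each list with a limma adjusted p under 0.05 (x axis), lower with PD 0332991 to the left and higher to the right, the number of genes tested in brackets. The hnRNPs reach 81.3% lower and the SR proteins 60.0%, against 5.74% of all genes tested.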

How the data were processed

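Gene expression was measured on 6 arrays, 3 per group. For every transcript cluster the authors deposited a log2 value on each array (the log base was taken from the range, 2.04 to 19.93). The submitters' processing notes name Affymetrix Expression Console; its background correction and normalization are not given in the sources used here. No normalization was added. The labels name 2 different labelling kits and do not say if replicate arrays stem from separate cultures; the p-values therefore describe the spread among these arrays alone, and that spread may be technical. The number of arrays limits the precision.

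Of the 65535 clusters given (the rows end within chromosome 22, so later genes are not analysed here), 22685 named 1 gene, 1385 several and 41465 none in the annotation table. Symbols were updated through Entrez identifiers for 20487 of them (RefSeq table of GRCh38.p14), and the brightest cluster per gene was kept. The comparison used limma 3.58.1 (R 4.3.3) over 22375 genes, two-sided, with Benjamini-Hochberg adjustment; "rose" and "fell" mean an adjusted p under 0.05. The fit was tested on simulated data. The members, lists and named genes (all members, the 3 smallest p in each direction per list, all calls where 5 or fewer, and a few fixed genes) were chosen with earlier results of these data known. Protein features were planned but not run.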

Additional observations from a re-analysis of the deposited data

How the results depend on the processing

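No member called in the main comparison and neither family median changed sign under the alternatives run (15 for each call). Of the 20 members called, 15 to 20 passed in each setting, and every member called under an alternative was also called in the main comparison. With the replicate number as a block, 16 members passed: 13 hnRNPs and 3 SR proteins, all 3 lower, while 0 members rose (SRSF8 had an adjusted p of 0.0520) and 1 gene of the splicing lists rose. Whether the numbers pair the arrays cannot be told from 3 arrays per group. Same-numbered arrays had correlations of their deviations of 0.022, -0.0065 and 0.037. DMSO 1 correlated best with PD 0332991 replicate 2 (0.055). With all transcript clusters in the fit, 3 SR proteins passed, all 3 lower, 0 rose, and 21 list genes fell and 0 rose; the falls per list were then 10 core spliceosome, 6 SR-related, 3 hnRNP relatives, 1 exon junction and 1 other regulator. Adjusting over more features is part of that setting. SRSF3, SRSF6, SRSF8 and HNRNPA1L2 lost their calls both there and without variance moderation, which left 12 hnRNPs in each, and SRSF4 lost its call with all clusters. Without variance moderation 4 SR proteins passed and 0 rose, 0 list genes rose, and 13 core spliceosome and 2 exon junction genes fell; over all genes 706 rose and 853 fell, against 1247 and 1284. All genes that rose numbered 786 with the block, 547 with all clusters and 716 to 815 with an array left out. Quantile normalization gave medians of -0.17 (SR proteins) and -0.36 (hnRNPs), lost SRSF4 and SRSF6, and left 2 exon junction falls; median centring gave -0.43 for the hnRNPs, and the replicate block left 5 hnRNP relatives lower. With an array left out, 4 to 6 SR proteins passed, of which 3 to 5 fell, 31 to 41 list genes fell, 1 to 2 rose, and the hnRNP median was -0.43 to -0.39. The cause of these shifts was not tested. SRSF12 and HNRNPCL2 were dim, so small changes in them would be hard to see.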
